A study of Arabidopsis thaliana with 10 samples.

Results

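Genes of the pollen tube surface, 10 in number, were followed through whole seed pools: the receptor kinase genes ANX1, ANX2, BUPS1 and BUPS2, the RALF4 and RALF19 genes for the secreted peptides that these receptors bind, and the receptor kinase genes PRK1, PRK2, PRK3 and PRK6. They were chosen by name and locus and make up 10 of the 33602 genes measured. RNA sequencing was done on 10 libraries in 5 groups of 2, each from seeds of 20 siliques harvested 6 days after pollination (DAP). All mothers were emasculated, hand-pollinated wild-type Ler plants, and all pollen donors were in the Columbia background. Triploid seeds of 3 mutant groups had osd1 pollen that also carried adm (adm-2), suvh7 (suvh7-1) or peg2, triploid seeds of the 3n group had osd1 pollen with no further mutation, and diploid 2n seeds had wild-type Columbia pollen. Pollen of osd1 plants is unreduced, so all 4 triploid groups share the osd1 mutation and an additional paternal genome, which diploid seeds lack. ADM, SUVH7 and PEG2 are paternally expressed imprinted genes, and the mutations came through pollen alone, so the maternal alleles in these seeds were wild type. The osd1 mutation came from the Nossen accession and was backcrossed to Columbia, so a stretch of linked Nossen sequence may differ between osd1 and Columbia pollen. Whole seeds hold embryo, endosperm and maternal seed coat, and no source says that pollen tube remains in the siliques were removed.

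A pollen tube carries 2 sperm cells to the ovule by growth at its tip, and the wall at that tip must hold during growth and give way on arrival. ANX1, ANX2, BUPS1 and BUPS2 belong to the CrRLK1L family, receptor kinases with a malectin-like outer domain, and together they keep the tube from bursting too early. RALF4 and RALF19 are made by the tube itself, bind to these receptors and to the cell wall proteins LRX8 to LRX11, and are needed for the same wall integrity. PRK receptors have leucine-rich repeats outside the cell, act through ROP GTPase switches to steer growth, and PRK6 is a receptor for the LURE attractants released by the synergids. Mature pollen and growing tubes are where these genes are best known, so their level in seeds bears on how much pollen-type transcription a seed pool holds.

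Paralogs of each kind are alike, which matters where a read is allowed a single position in the genome. Stretches of coding sequence that contain the longest run of identical bases shared by a pair are shown for 3 of the pairs, with the shared run in capitals. They are read 5′ to 3′ from the TAIR10.1 assembly in RefSeq, on the strand of the gene.
ANX1, chr3:1274247-1274276, minus strand: CTCAACGAATTCGAGACAGAAATCGAACTc
ANX2, chr5:10720310-10720339, minus strand: CTCAACGAATTCGAGACAGAAATCGAACTt
RALF4, chr1:9883406-9883435, plus strand: gatccTACTACGATTGCAAGAAGAGaagaa
RALF19, chr2:14288787-14288816, plus strand: ggtctTACTACGATTGCAAGAAGAGgaaaa
PRK1, chr5:13597499-13597528, plus strand: ctTGTTAAACCTTTCAAACAATGCATTaac
PRK2, chr2:2917172-2917201, plus strand: caTGTTAAACCTTTCAAACAATGCATTggc
The longest shared run was 29 bases between ANX1 and ANX2, 20 bases between RALF4 and RALF19 and 25 bases between PRK1 and PRK2. It was 34 bases between BUPS1 and BUPS2 and 32 bases between PRK3 and PRK6, and 11 to 17 bases between the other pairs compared within a receptor family. All of these runs are shorter than the sequenced reads. They do not bound longer stretches that differ by few bases, and how reads were divided between paralogs was not tested.

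The genes lie on all 5 chromosomes, with no pair side by side. On chromosome 3 lie ANX1 (AT3G04690, chr3:1273057-1276945) and PRK3 (AT3G42880, chr3:14954363-14957031), and on chromosome 4 lies BUPS1 (AT4G39110, chr4:18221993-18225238). ANX2 (AT5G28680, chr5:10719127-10722361), PRK1 (AT5G35390, chr5:13596824-13599269) and PRK6 (AT5G20690, chr5:7002453-7004775) are on chromosome 5. BUPS2 (AT2G21480, chr2:9202494-9205471), RALF19 (AT2G33775, chr2:14288323-14289313) and PRK2 (AT2G07040, chr2:2916416-2919392) are on chromosome 2, and RALF4 (AT1G28270, chr1:9882951-9884189) is on chromosome 1. The encoded proteins are 850 to 878 amino acids long for the 4 CrRLK1L receptors, 633 to 662 for the 4 PRK receptors and 110 for each RALF precursor. BUPS1, BUPS2, RALF4 and RALF19 have a single annotated exon. Values are RPKM, reads scaled to gene length and library size, so levels of genes of different length can be compared.

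Library sums of RPKM ranged from 700509 to 743974, with 24106 to 25085 genes above 0. Depth, judged from the steps between low values, was 0.886 to 1.17 of the median library. From these steps each level is given an approximate number of reads, which tends to be too high where the annotated gene is longer than the one used by the authors. Each targeted gene was lower in the group whose pollen carried its mutation. OSD1 had 1.91 and 1.38 RPKM in 3n seeds, against 8.83 and 7.02 RPKM in 2n seeds, ADM had 0.251 and 0.237 RPKM in 3n adm seeds, against 2.42 and 4.01 RPKM in 3n seeds, SUVH7 had 0.640 and 0.956 RPKM in 3n suvh7 seeds, against 3.09 and 3.15 RPKM in 3n seeds, and PEG2 had 0.238 and 0.0808 RPKM in 3n peg2 seeds, against 3.54 and 4.10 RPKM in 3n seeds. Low levels were not particular to the labelled group. Against 3n seeds, PEG2 also fell in 3n adm seeds (1.34 and 0.908 RPKM) and 3n suvh7 seeds (0.646 and 0.605 RPKM), and ADM in 3n suvh7 seeds (0.758 and 0.706 RPKM). In 2n seeds, from wild-type pollen, ADM (0.0356 and 0.212 RPKM), SUVH7 (0.0883 and 0.133 RPKM) and PEG2 (0 and 0.0151 RPKM) were lower still. OSD1 had 3.35 and 2.94 RPKM in 3n adm, 2.57 and 3.03 in 3n suvh7 and 0.864 and 1.67 in 3n peg2 seeds.

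All 10 genes were low in every library, from listed at 0 to 3.28 RPKM. The best measured were ANX1, with 206 to 571 reads per library, BUPS1, with 30 to 207, and RALF4, with 3 to 265. PRK2 had 0 to 157 reads, RALF19 0 to 80, ANX2 0 to 51 and BUPS2 0 to 24. PRK1 and PRK3 reached no more than 15 reads in any library, and PRK6 no more than 6, so for these genes the data show presence or near absence but hardly a level. Libraries listed at 0 numbered 7 for PRK6, 5 for PRK3, 2 each for ANX2, BUPS2, RALF19 and PRK1, and 1 for PRK2. If reads were independent, a gene with no read could still have up to 3 reads by counting error. That is 0.0164 to 0.0217 RPKM for PRK3 and 0.0192 to 0.0254 RPKM for PRK6. Both mates of a pair can count as reads here, so reads are not independent and the true bound is higher than these values.

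**Figure D1:**
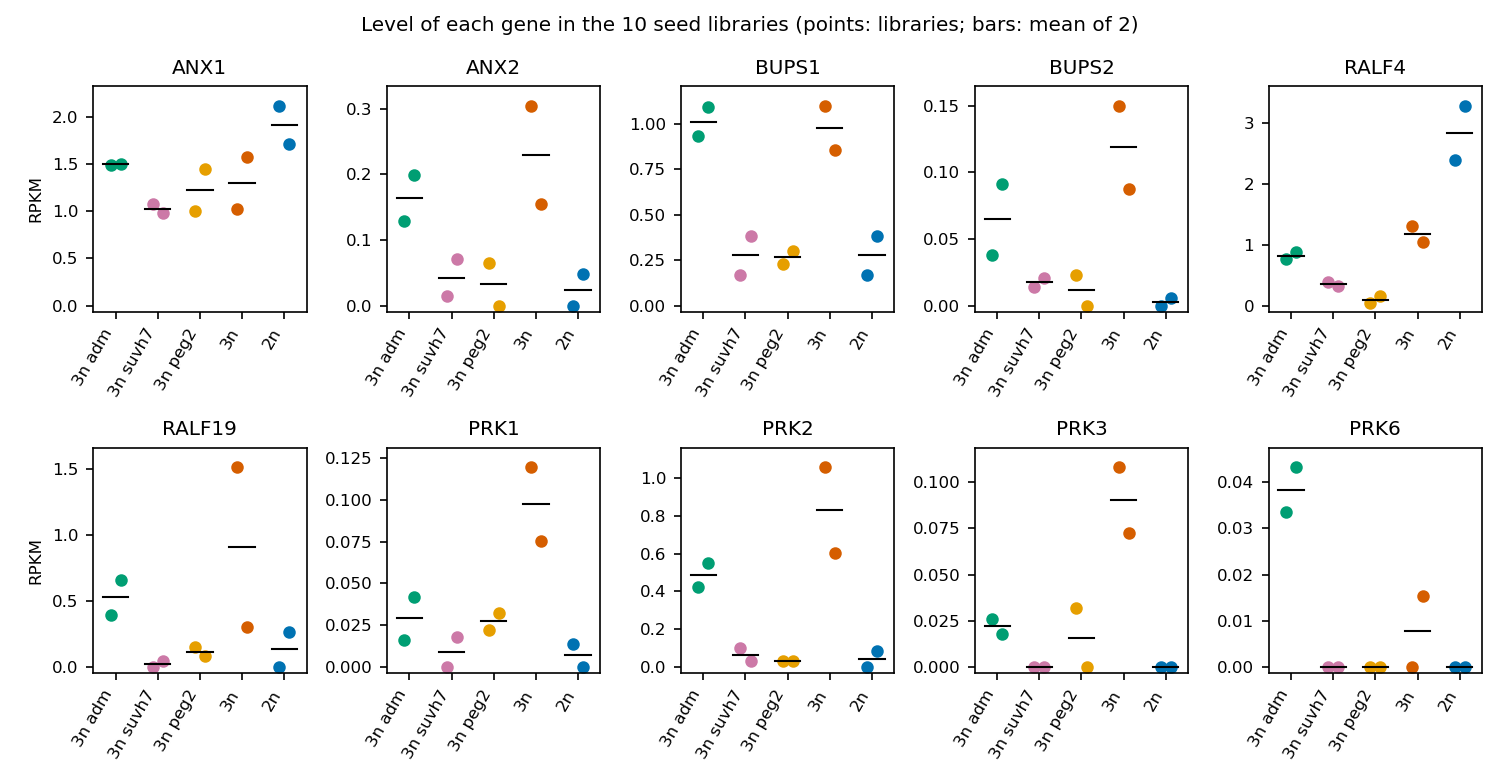
RPKM of each of the 10 genes (vertical axis, own scale per panel, from 0) in the 5 groups of seeds, with 1 point per library and a bar at the mean of the 2 libraries. Most genes are highest in 3n or 3n adm seeds and near 0 elsewhere, while RALF4 and ANX1 are highest in 2n seeds, at 2.39 to 3.28 and 1.72 to 2.12 RPKM.

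The first comparison asked whether seeds with an additional paternal genome contain more of these transcripts than diploid seeds. In triploid 3n seeds 4 genes rose (ANX2, BUPS1, BUPS2 and PRK2) and RALF4 fell, at a limma Benjamini-Hochberg adjusted p under 0.05 and a log2 fold change past 1. Of all 26601 genes tested, 9.53% rose and 9.94% fell by the same rule. Fold changes are differences of log2(RPKM + 0.1), a scale that understates the change of genes as low as these. The median over the 10 genes was 1.0 log2, against -0.01 over all genes tested, and it was 1.23 over the 8 genes that were above 0 in both groups.

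Among the receptors of wall integrity, BUPS1 had the highest level in 3n seeds after ANX1. It had 1.097 and 0.854 RPKM in 3n seeds, against 0.166 and 0.384 RPKM in 2n seeds. Both 3n libraries were above both 2n libraries, and the difference was 1.57 ± 0.37 log2 (SE, limma adjusted p = 0.0085), a ratio of means of 3.55. ANX2 had 0.304 and 0.155 RPKM in 3n seeds, against 0 and 0.0476 RPKM in 2n seeds, a rise of 1.4 ± 0.36 log2 (limma adjusted p = 0.013). BUPS2 had 0.1498 and 0.0878 RPKM in 3n seeds, against 0 and 0.00586 RPKM in 2n seeds. Its rise of 1.07 ± 0.22 log2 (limma adjusted p = 0.0045) was just past the fold threshold, and nearly no reads were seen in 2n seeds.

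ANX1, the closest relative of ANX2, did not share this pattern. It had 1.02 and 1.57 RPKM in 3n seeds, against 2.12 and 1.72 RPKM in 2n seeds. The 3n libraries lay below the 2n libraries, but the difference of -0.55 ± 0.25 log2 did not pass the test (limma adjusted p = 0.11). At its 5′ end the gene shares 278 exon bases, 7.30% of its exon length and none of them coding, with AT3G04700 and TPR10 on the opposite strand, and the library kit does not mark strand. AT3G04700 had 3.32 and 1.78 RPKM in 3n seeds, against 0.514 and 0.929 RPKM in 2n seeds, and TPR10 had 9.31 to 12.98 RPKM over the 10 libraries. The part of such reads in the level of ANX1 was not tested.

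The peptide genes moved apart. RALF4 had 1.3 and 1.05 RPKM in 3n seeds, against 2.39 and 3.28 RPKM in 2n seeds, and fell by 1.19 ± 0.32 on the log2 scale (limma adjusted p = 0.016). RALF19 had 1.51 and 0.306 RPKM in 3n seeds, against 0 and 0.268 RPKM in 2n seeds. Both 3n values of RALF19 were above both 2n values, yet the 3n replicates were far apart and the difference of 2.08 ± 0.74 log2 missed the threshold (limma adjusted p = 0.051). RALF4 was thus the more abundant of the 2 peptide genes in 2n seeds, while in 3n seeds their values overlapped.

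Of the PRK receptors, PRK2, which activates ROP signalling through ROPGEF12 in pollen tubes, had the largest fold on the log2(RPKM + 0.1) scale. It had 1.06 and 0.603 RPKM in 3n seeds, against 0 and 0.0833 RPKM in 2n seeds, a rise of 2.74 ± 0.36 log2 (limma adjusted p = 0.00044). As a ratio of means BUPS2 was further apart, 40.5 against 19.9 for PRK2. The BUPS2 ratio rests on 0 and about 1 read in the 2n libraries, so the ratios do not rank these genes. PRK1 had 0.119 and 0.0753 RPKM in 3n seeds, against 0.0139 and 0 RPKM in 2n seeds, and passed on the p value but not on the fold (0.88 ± 0.19 log2, limma adjusted p = 0.0056). PRK1 shares 50 exon bases, 2.10% of its exon length and none coding, with AT5G35400 on the opposite strand. AT5G35400 had 2.76 and 3.28 RPKM in 3n seeds, against 4.12 and 4.51 RPKM in 2n seeds. The part of such reads in the level of PRK1 was not tested. PRK3 had 0.108 and 0.0725 RPKM in 3n seeds and was listed at 0 in both 2n libraries, so no fold is given (limma adjusted p = 0.0033). PRK6, the LURE receptor, had 0 and 0.0155 RPKM in 3n seeds and was listed at 0 in both 2n libraries, with no difference detectable at this depth (limma adjusted p = 0.58).

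In this comparison 7 genes had both 3n libraries above both 2n libraries, RALF4 and ANX1 had them below, and PRK6 overlapped. Over all genes tested, 30.9% were above and 36.9% below in this way. Without the first 3n library the calls of ANX2 and BUPS2 were lost, without the first 2n library those of ANX2 and BUPS1, and without the second library of either group that of RALF4, whose fold then was -1.05 or -0.98 log2. With a pseudocount of 0.01 the call of RALF4 was lost as well (limma adjusted p = 0.093, over all alternatives 0.0011 to 0.093), and with these 2 groups fitted alone those of BUPS1 and ANX2. Leaving out the second 3n or the second 2n library brought RALF19 past the threshold, and leaving out the second 3n library brought PRK1 and PRK3 past it too. PRK2 stayed called whichever library was left out, while a pseudocount of 1 in place of 0.1, or the rank product method, left none of the 10 genes called.

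**Figure D2:**
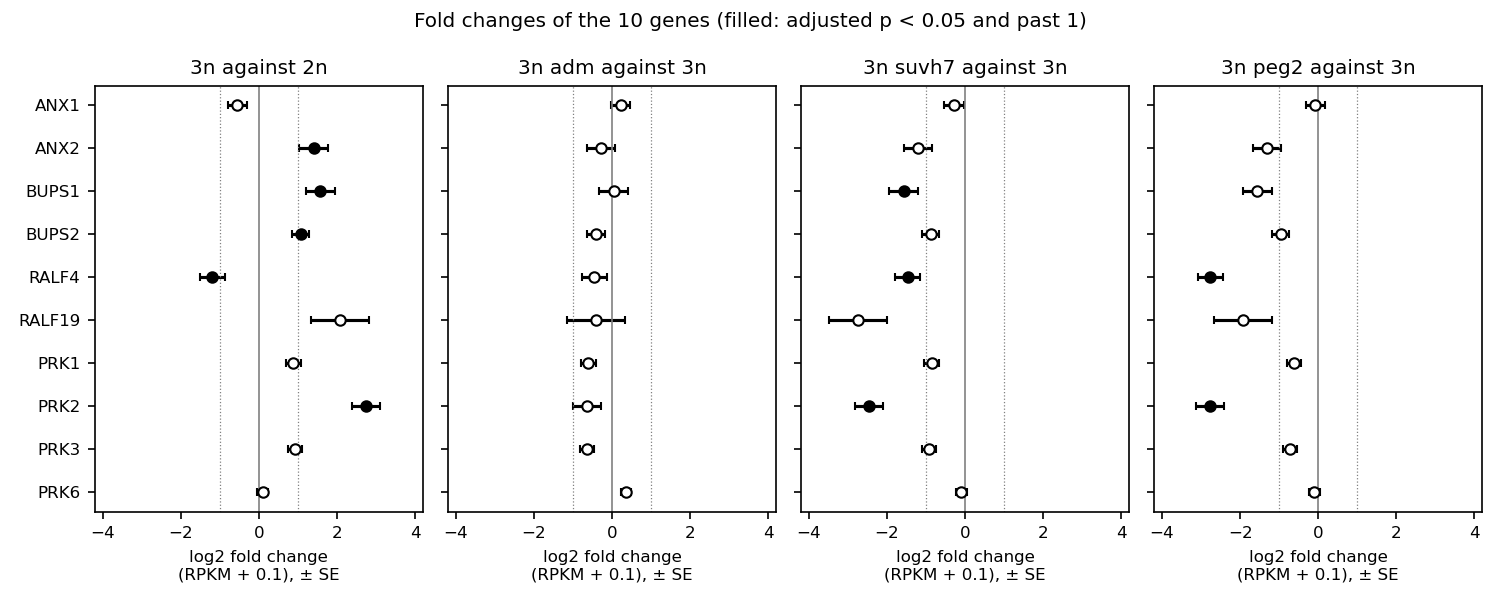
Difference in log2(RPKM + 0.1) of the 10 genes (horizontal axis, points with SE from limma) in 3n against 2n seeds and in each triploid mutant group against 3n seeds; filled points passed both the adjusted p and the fold threshold, dotted lines mark a log2 change of 1. In 3n seeds 8 genes lie right of 0 and 5 are filled, and in 3n suvh7 and 3n peg2 seeds all 10 lie left of 0, with 3 and 2 filled.

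The next comparisons asked what each paternal mutation does to these transcripts in triploid seeds. All 3 share the same 2 libraries of 3n seeds, so their results are not independent. In 3n adm seeds none of the 10 genes was called against 3n seeds, where 2.67% of all genes tested rose and 0.722% fell. At an unadjusted p under 0.05 there were 3 of them, PRK1 and PRK3 lower and PRK6 higher, as 28.0% of all genes had, and the rank product called 0. The median was -0.41 log2, against 0.10 over all genes.

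BUPS1 had 0.933 and 1.09 RPKM in 3n adm seeds, against 1.097 and 0.854 RPKM in 3n seeds, and the values overlapped (0.05 ± 0.37 log2, limma adjusted p = 0.96). PRK2 had 0.421 and 0.550 RPKM in 3n adm seeds, against 1.06 and 0.603 RPKM in 3n seeds (-0.63 ± 0.36 log2, limma adjusted p = 0.30). ANX2 had 0.129 and 0.199 RPKM in 3n adm seeds, and BUPS2 0.0381 and 0.0915 RPKM, against 0.304 and 0.155 RPKM for ANX2 and 0.1498 and 0.0878 RPKM for BUPS2 in 3n seeds. The values of both genes overlapped. RALF19 had 0.394 and 0.662 RPKM in 3n adm seeds, between the 1.51 and 0.306 RPKM of the 3n libraries.

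RALF4 had 0.758 and 0.883 RPKM in 3n adm seeds, against 1.3 and 1.05 RPKM in 3n seeds, lower in both libraries but not past the test (-0.46 ± 0.32 log2, limma adjusted p = 0.39). ANX1 had 1.49 and 1.51 RPKM in 3n adm seeds, within the range of the 3n libraries. PRK1 had 0.0163 and 0.0420 RPKM in 3n adm seeds, against 0.119 and 0.0753 RPKM in 3n seeds, and PRK3 0.0262 and 0.0180 RPKM, against 0.108 and 0.0725 RPKM (limma adjusted p = 0.079 for PRK1 and 0.061 for PRK3). These were the nearest to the threshold, and both rest on few reads. PRK6 was highest in this group, at 0.0336 and 0.0432 RPKM in 3n adm seeds, against 0 and 0.0155 RPKM in 3n seeds (limma adjusted p = 0.13). That is at most 6 reads in a library, and fewer read pairs.

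In 3n suvh7 seeds PRK2, BUPS1 and RALF4 fell against 3n seeds, and none of the 10 rose, where 2.82% of all genes fell and 2.15% rose. All 10 fold changes were negative, with a median of -1.06 log2, against -0.04 over all genes, and of -1.34 log2 over the 8 genes above 0 in both groups. PRK2 had 0.0992 and 0.0328 RPKM in 3n suvh7 seeds, against 1.06 and 0.603 RPKM in 3n seeds, and fell by 2.47 ± 0.36 on the log2 scale (limma adjusted p = 0.0048). BUPS1 had 0.166 and 0.384 RPKM in 3n suvh7 seeds, against 1.097 and 0.854 RPKM in 3n seeds, and fell by 1.57 ± 0.37 on the log2 scale (limma adjusted p = 0.034). These BUPS1 levels matched those of 2n seeds to 3 significant digits, while PRK3 and PRK6 were listed at 0 in both groups and the other 7 genes differed. RALF4, already lower in 3n than in 2n seeds, had 0.394 and 0.326 RPKM in 3n suvh7 seeds, against 1.3 and 1.05 RPKM in 3n seeds, and fell by 1.47 ± 0.32 on the log2 scale (limma adjusted p = 0.026).

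For 3 further genes the p value passed but the fold did not. BUPS2 had 0.0140 and 0.0208 RPKM in 3n suvh7 seeds, against 0.1498 and 0.0878 RPKM in 3n seeds (limma adjusted p = 0.044). PRK1 had 0 and 0.0178 RPKM in 3n suvh7 seeds, against 0.119 and 0.0753 RPKM in 3n seeds (limma adjusted p = 0.027), and PRK3 was listed at 0 in both 3n suvh7 libraries, against 0.108 and 0.0725 RPKM in 3n seeds (limma adjusted p = 0.016). At such levels the added 0.1 RPKM holds the fold near or under 1 log2, whatever the true ratio.

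RALF19 had 0 and 0.0452 RPKM in 3n suvh7 seeds, against 1.51 and 0.306 RPKM in 3n seeds, a large difference with a large error (-2.75 ± 0.74 log2, limma adjusted p = 0.060). ANX2 had 0.0142 and 0.0702 RPKM in 3n suvh7 seeds, against 0.304 and 0.155 RPKM in 3n seeds (-1.20 ± 0.36 log2, limma adjusted p = 0.083). ANX1, at 1.07 and 0.979 RPKM in 3n suvh7 seeds, and PRK6, listed at 0 in both, overlapped with 3n seeds. In all, 8 genes had both 3n suvh7 libraries below both 3n libraries, as 25.8% of all genes did. The call of PRK2 was kept whichever library was left out, whereas those of RALF4 and BUPS1 were lost in 6 and 7 of 10 such fits. RALF4 was lost without either library of 3n, 3n adm or 3n suvh7 seeds, and BUPS1 without either library of 3n, 3n adm or 3n peg2 seeds or the first of 3n suvh7 seeds. With these 2 groups fitted alone, with a pseudocount of 1, or by rank product, none of the 10 genes was called. With a pseudocount of 0.01 all 3 calls, that of PRK2 included, were lost and PRK3 was called instead.

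In 3n peg2 seeds RALF4 and PRK2 fell against 3n seeds and none of the 10 rose. Of all genes tested, 0.139% fell and 0.0677% rose, and the median of the 10 genes was -1.14 log2, against -0.02 over all genes, and -1.32 log2 over the 9 genes above 0 in both groups. RALF4 had 0.0363 and 0.158 RPKM in 3n peg2 seeds, about 3 reads in the lower library, against 1.3 and 1.05 RPKM in 3n seeds, and fell by 2.76 ± 0.32 on the log2 scale (limma adjusted p = 0.019). PRK2 had 0.0343 and 0.0298 RPKM in 3n peg2 seeds, against 1.06 and 0.603 RPKM in 3n seeds, and fell by 2.77 ± 0.36 on the log2 scale (limma adjusted p = 0.033). These 2 genes were also called by the rank product.

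The other genes were below 3n seeds as well, without passing the test. BUPS1 had 0.230 and 0.299 RPKM in 3n peg2 seeds, against 1.097 and 0.854 RPKM in 3n seeds (-1.56 ± 0.37 log2, limma adjusted p = 0.20), about the same fold as in 3n suvh7 seeds. ANX2 had 0.0646 and 0 RPKM, BUPS2 0.0231 and 0 RPKM, and RALF19 0.151 and 0.0821 RPKM in 3n peg2 seeds, with limma adjusted p of 0.28, 0.19 and 0.52 against 3n seeds. PRK1 had 0.0223 and 0.0323 RPKM and PRK3 0.0318 and 0 RPKM in 3n peg2 seeds, with limma adjusted p of 0.34 and 0.22. In total 8 genes had both 3n peg2 libraries below both 3n libraries, as 19.7% of all genes did, and the exceptions were ANX1, at 1.01 and 1.45 RPKM, and PRK6, listed at 0 in both 3n peg2 libraries.

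For BUPS1 nearly the same unadjusted p, 0.0028 in 3n peg2 and 0.0026 in 3n suvh7 seeds, gave a call in 3n suvh7 seeds alone, because Benjamini-Hochberg adjustment depends on how many genes pass in a contrast. The direct comparison of 3n peg2 with 3n suvh7 seeds put BUPS1 at a limma adjusted p of 1.0. Of the calls in 3n peg2 seeds, RALF4 was lost in 5 of 10 fits without 1 library and PRK2 in 6 of 10. Either 3n library, either 3n adm library or the first 3n peg2 library was enough to lose both, and the second 3n peg2 library to lose PRK2. Neither was called with a pseudocount of 1 or with these 2 groups fitted alone, and PRK2 was also lost with a pseudocount of 0.01.

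Set directly against each other, the mutant groups differed in 3 of the genes. PRK2 and BUPS1 were lower in 3n suvh7 than in 3n adm seeds, where 3.51% of all genes were called lower and 0.372% higher. PRK2, BUPS1 and RALF4 were lower in 3n peg2 than in 3n adm seeds, where 4.18% were called lower and 1.25% higher. RALF4 alone was lower in 3n peg2 than in 3n suvh7 seeds, where 2.32% were called lower and 1.98% higher. Each of these calls except that of RALF4 in 3n peg2 against 3n adm seeds was lost without some single library.

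Set against diploid seeds, the mutant groups had 4, 1 and 1 of these genes called, for adm, suvh7 and peg2. In 3n adm seeds ANX2, BUPS1 and PRK2 rose and RALF4 fell against 2n seeds, where 9.89% of all genes rose and 6.50% fell. The rises were 1.11 ± 0.36 log2 for ANX2, 1.63 ± 0.37 log2 for BUPS1 and 2.10 ± 0.36 log2 for PRK2, and RALF4 fell by 1.66 ± 0.32 on the log2 scale (limma adjusted p = 0.038, 0.0083, 0.0023 and 0.0039). Of the 10 genes, 8 had both 3n adm libraries above both 2n libraries, as 40.8% of all genes did. The call of ANX2 was lost without the first 2n library or either 3n adm library and that of BUPS1 without the first 2n library. ANX2 was also lost with a replicate block (limma adjusted p = 0.056), size factors, a pseudocount of 0.01 or these 2 groups alone, with adjusted p of 0.034 to 0.20 over all alternatives.

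In 3n suvh7 and 3n peg2 seeds RALF4 was the only one of the 10 genes called against 2n seeds. It fell by 2.66 ± 0.32 on the log2 scale in 3n suvh7 seeds (limma adjusted p = 0.00043) and by 3.95 ± 0.32 in 3n peg2 seeds (limma adjusted p = 2.5e-05), where 6.63% and 10.6% of all genes fell and 6.54% and 9.10% rose. Both calls were kept whichever library was left out. Over the 8 genes other than ANX1 and RALF4, RPKM summed to 0.293 and 0.571 in 3n suvh7 seeds and to 0.557 and 0.444 in 3n peg2 seeds, against 0.180 and 0.789 in 2n seeds. The sums were 1.99 and 2.70 in 3n adm seeds and 4.35 and 2.17 in 3n seeds. The highest value of the 2n, 3n suvh7 and 3n peg2 libraries was below the lowest of these 4. Most of the sum in the first 3n library was RALF19, BUPS1 and PRK2, at 1.515, 1.097 and 1.056 RPKM. ANX1 and RALF4, both highest in 2n seeds, were left out of this sum with their values known. Over all 10 genes the sums were 4.69 and 5.79 RPKM in 2n, 6.67 and 4.79 in 3n and 4.24 and 5.085 in 3n adm seeds, which overlapped. They were 1.76 and 1.88 RPKM in 3n suvh7 and 1.60 and 2.05 in 3n peg2 seeds.

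RALF4 therefore had an order of its own across the groups. It was lowest in 3n peg2 seeds, then came 3n suvh7, 3n adm and 3n seeds, and 2n seeds were highest, with no overlap between neighbours in that order. The differences between 3n peg2 and 3n suvh7 seeds and between 3n and 2n seeds passed the test in the main fit. Those between 3n adm and 3n seeds and between 3n suvh7 and 3n adm seeds did not (limma adjusted p = 0.39 and 0.077). Both calls were lost with either other pseudocount. The call between 3n peg2 and 3n suvh7 seeds was also lost with no filter, a replicate block or these groups alone. Over the 10 libraries, the correlation of each gene with the mean of the other 9 was 0.30 for RALF4 and 0.05 for ANX1, but 0.87 to 0.91 for BUPS2, RALF19, ANX2, BUPS1 and PRK2. It was 0.70 for PRK1, 0.74 for PRK3 and 0.52 for PRK6, genes with values at 0. These are descriptions over libraries that share groups and depth.

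Genes whose profile over the 10 libraries was most like the mean of the 10, among 19354 genes compared, were led by PI4K GAMMA 1 (Pearson's r = 0.975), AT5G54095 (0.963), a proteoglycan-like protein, and AGP6 (0.961), an arabinogalactan protein of pollen. Next came the kinase AT3G61160, CSR1, sks13, the glycosyl hydrolase AT5G20390 and AT3G05610 of the pectin methylesterase inhibitor superfamily, with r from 0.954 to 0.950. AGP6 averaged 3.80 RPKM in 3n seeds, against 0.903 RPKM in 2n seeds. CSR1, the acetolactate synthase of branched amino acid synthesis, was far more abundant, with a mean of 213.3 RPKM in 3n seeds, against 130.5 RPKM in 2n seeds.

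Many pollen markers moved with these genes. Over all genes tested, 9.53% rose and 9.94% fell in 3n against 2n seeds, the shares to set beside this list and those that follow. Of 24 genes known from pollen and pollen tubes, 14 rose in 3n against 2n seeds and 1, MYB101, fell, with a median of 1.53 log2. The largest rises were those of AGP11 (3.29 ± 0.59 log2), the pollen tube pectin methylesterase VGD1 (3.27 ± 0.77) and its homolog VGDH1 (3.11 ± 0.70), with limma adjusted p of 0.0023, 0.0090 and 0.0071. VGD1 had 9.42 and 2.91 RPKM in 3n seeds, against 0.153 and 1.11 RPKM in 2n seeds. Against 3n seeds, 11 of the 24 fell and 1 rose in 3n suvh7 seeds, with a median of -1.36 log2, 1 rose in 3n adm seeds, with -0.42, and none was called in 3n peg2 seeds, where the median was -1.31. In both cases of a rise the gene was MYB101. ACT12 rose in 3n against 2n seeds (2.86 ± 0.2 log2, limma adjusted p = 1.2e-05) but was not called in any mutant group against 3n seeds. It had 0.452 and 0.523 RPKM in 3n suvh7 and 0.917 and 1.09 in 3n peg2 seeds, against 0.835 and 0.643 in 3n seeds.

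TUB9, also on that list, had 117.6 to 140.5 RPKM in all libraries and hides the others in a sum. Without it, a choice made after its values were seen, the remaining 23 genes summed to 20.1 and 18.9 RPKM in 3n adm seeds, 8.03 and 7.39 in 3n suvh7 seeds, 8.32 and 6.36 in 3n peg2 seeds, 44.8 and 21.4 in 3n seeds and 8.25 and 14.0 in 2n seeds. MYB101, which moved the other way, was kept and is a large part of some sums. It had 6.01 and 6.57 RPKM in 2n, 3.27 and 4.06 in 3n suvh7 and 4.70 and 4.19 in 3n adm seeds. In 3n seeds it had 2.05 and 1.45 RPKM, and in 3n peg2 seeds 1.01 and 1.73. The first 3n library was highest in this sum and in that of the 8 genes, and the first 2n library was lowest in the 8 genes. More pollen tube cells in a pool and more of these transcripts per cell cannot be told apart in bulk seeds, and the part of pollen remains in the results was not tested.

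**Figure D3:**
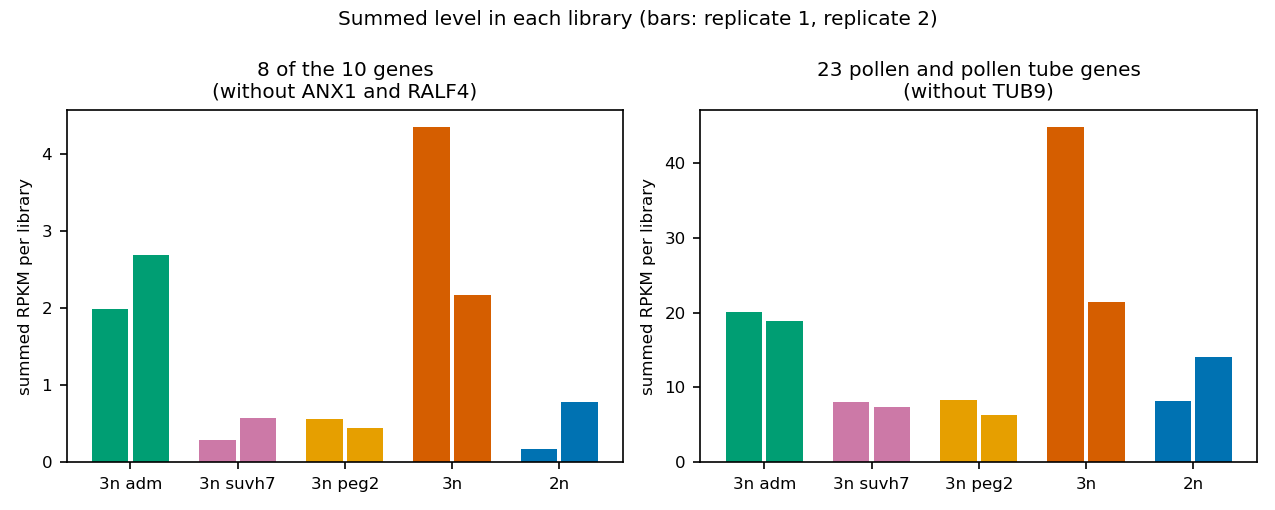
Summed RPKM per library (vertical axis, from 0; bars are replicate 1 and replicate 2 of each group) of the 8 genes other than ANX1 and RALF4, left, and of 23 pollen and pollen tube genes without TUB9, right. In both panels the first 3n library is highest, at 4.35 on the left and 44.8 on the right. The 3n and 3n adm libraries overlap on the left, and on the right both 3n libraries are above both 3n adm libraries. The 3n suvh7, 3n peg2 and 2n libraries are lower in both panels. MYB101, which moved the other way, is included on the right, with 6.01 and 6.57 RPKM in 2n seeds.

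Markers of other cell types gave a different picture in the sums. Of 5 sperm cell genes, DUO1 was listed at 0 in all libraries, and HAP2 and GEX2 fell in 3n against 2n seeds. MGH3 and DMP9 had at most 0.0583 RPKM in any library. Both were above 0 in both 3n libraries and listed at 0 in both 2n libraries, but neither was called. The sperm list, nearly all of it HAP2 and GEX2, summed to 0.660 and 0.552 RPKM in 3n seeds, against 1.76 and 1.47 RPKM in 2n seeds. In 3n suvh7 seeds HAP2 rose against 3n seeds. Of 4 tapetum genes CYP703A2 fell in 3n against 2n seeds, the list summing to 0.328 RPKM or less in any library. Of 5 synergid genes, MYB98 and LURE1.2 the most abundant, none was called, at sums of 0.349 to 0.833 RPKM.

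Genes of the seed tissues were counted in the same way. Of 5 embryo genes 4 fell in 3n against 2n seeds, FUS3, WOX9 and TMO7 the most. The list summed to 119.3 and 122.1 RPKM in 3n adm, 126.8 and 145.6 in 3n suvh7, 52.4 and 73.8 in 3n peg2, 80.4 and 59.6 in 3n and 182.2 and 182.4 in 2n seeds. Of 6 endosperm genes 3 rose (FIS2, MEA and MINI3) and 2 fell (ZOU and ALE1) in 3n against 2n seeds, with a median of 0.82 log2. Their sums were 22.3 to 28.5 RPKM in the triploid groups, against 43.9 and 48.2 RPKM in 2n seeds. Most of each sum was ZOU and ALE1. ZOU had 7.05 and 7.53 RPKM in 3n seeds, against 17.3 and 18.6 in 2n seeds, and ALE1 8.21 and 8.88, against 24.6 and 27.0. Of 5 seed coat genes 1, TT12, rose, and the sums were 754.0 to 826.3 RPKM in the triploid groups, against 712.6 and 708.7 RPKM in 2n seeds. In 3n suvh7 against 3n seeds the embryo genes WOX9 and TMO7 rose and the endosperm gene MINI3 fell, and in 3n adm and 3n peg2 seeds no gene of these lists was called. The part of the tissue makeup of the pools in the results was not tested.

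Relatives and partners of the 10 genes were read in the same way. Of 34 other RALF genes 23 could be tested, and 9 rose in 3n against 2n seeds while none fell. RALF15 had 2.96 and 1.60 RPKM in 3n seeds, against 0 and 0.256 RPKM in 2n seeds (3.59 ± 0.62 log2, limma adjusted p = 0.0019), and RALF26 had 1.79 and 1.86 RPKM, against 0 and 0.180 RPKM (3.52 ± 0.52 log2, limma adjusted p = 0.00077). RALF21 had 0.704 and 0.915 RPKM in 3n seeds and was listed at 0 in both 2n libraries. In 3n suvh7 seeds 5 of the 23 fell against 3n seeds, RALF15, RALF26 and RALF21 among them, in 3n adm seeds RALF18 alone, and in 3n peg2 seeds none. RALF15 had 0.0761 and 0.0754 RPKM in 3n suvh7 seeds and 0.189 and 0.480 RPKM in 3n peg2 seeds. RALF3 and RALF28, the most abundant of the 9 that rose, were called in no mutant group against 3n seeds. RALF28 had 13.2 and 15.0 RPKM in 3n, 9.06 and 8.63 in 3n suvh7, 11.6 and 8.67 in 3n peg2 and 2.08 and 2.38 in 2n seeds. RALF3 had 41.2 and 46.7 RPKM in 3n, 31.1 and 40.2 in 3n suvh7, 45.8 and 38.6 in 3n peg2 and 13.9 and 16.1 in 2n seeds.

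The other CrRLK1L receptors showed no shared direction. For comparison with the counts of these 13 receptors, 9.53% of all genes tested rose in 3n against 2n seeds and 9.94% fell. Of 13, 2 rose (MDS4 by 1.99 ± 0.23 log2 and ERU, known from root hair growth, by 1.71 ± 0.16 log2) and 2 fell (HERK2 by 1.60 ± 0.16 and MDS1 by 1.54 ± 0.21 on the log2 scale) in 3n against 2n seeds. Against 3n seeds MDS4 fell in 3n suvh7 seeds, and no other of the 13 was called in any of the 3 mutant groups. FER (FERONIA), which acts in the female tissue that receives the tube, had 105.2 and 126.5 RPKM in 3n seeds, against 103.1 and 114.2 RPKM in 2n seeds, far above any of the 4 pollen tube receptors.

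Of 13 genes for partners of ANX and BUPS receptors (co-receptors of the LLG family, LRX wall proteins, the kinase MRI, phosphatases and NADPH oxidases), none was called in 3n against 2n seeds. The most abundant were the co-receptor LLG2, with 126.8 and 143.1 RPKM in 3n seeds, against 99.95 and 98.9 RPKM in 2n seeds, and LLG1. In 3n suvh7 seeds the wall proteins LRX9, LRX10 and LRX11, named after their values were seen, fell against 3n seeds by 1.45 ± 0.22, 1.49 ± 0.37 and 1.4 ± 0.29 on the log2 scale (limma adjusted p = 0.0062, 0.046 and 0.021). LRX10 had 0.401 and 0.572 RPKM in 3n suvh7 seeds, against 1.77 and 1.32 RPKM in 3n seeds.

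In 3n against 2n seeds 9.53% of all genes tested rose and 9.94% fell. Of 17 genes for PRK relatives and partners, 4 rose and 2 fell. Those that rose were LIP2 (2.56 ± 0.37 log2) and LIP1 (1.17 ± 0.25 log2), membrane kinases of pollen tube guidance, MDIS1 (1.32 ± 0.28 log2), another LURE receptor, and ROPGEF12 (1.17 ± 0.17 log2), the exchange factor that PRK2 binds. ROPGEF10 and ROPGEF1 fell by 1.99 ± 0.28 and 1.01 ± 0.12 on the log2 scale. LIP2 had 1.45 and 0.749 RPKM in 3n seeds, against 0.0395 and 0.172 RPKM in 2n seeds, a pattern close to that of PRK2. Against 3n seeds LIP1, LIP2 and ROPGEF12 fell in 3n suvh7 seeds and LIP1 in 3n peg2 seeds, where it had 0.0497 and 0 RPKM, against 0.342 and 0.280 RPKM in 3n seeds (limma adjusted p = 0.049).

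**Figure D4:**
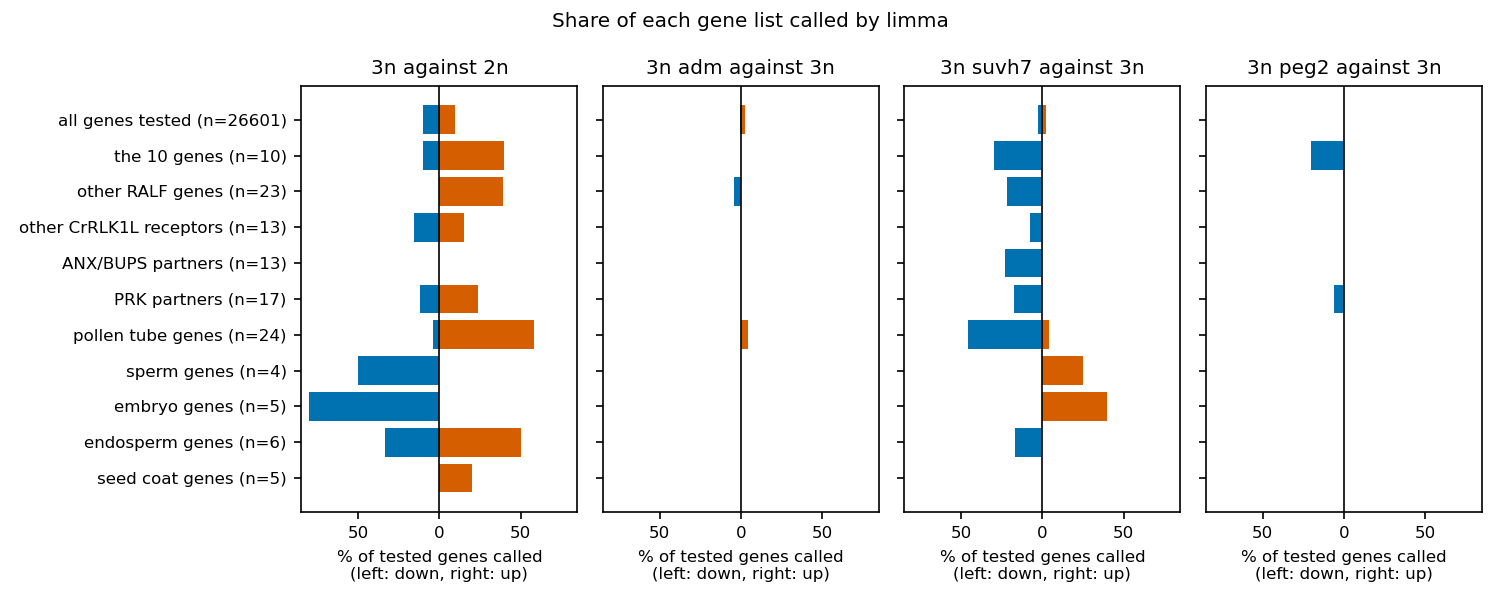
Share of the tested genes of each list called by limma (horizontal axis, percent; right of 0 called up, left called down) in 3n against 2n seeds and in the mutant groups against 3n seeds, with the number of tested genes beside each list. In 3n seeds 4 of the 10 genes, 9 of 23 other RALF genes and 14 of 24 pollen tube genes rose, and in 3n suvh7 seeds 3, 5 and 11 of them fell. Over all genes tested, 9.53% rose in 3n against 2n seeds and 2.82% fell in 3n suvh7 against 3n seeds.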

How the data were processed

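RNA of whole seeds (TruSeq kit, paired-end) was sequenced from 10 libraries. The authors mapped the reads to TAIR10 with TopHat2 2.0.10, with no more than 1 alignment allowed for a read. The deposited table holds RPKM for 33602 genes; the tool that made them is not given in the sources used here. Counts are not part of the table. Annotation and sequences come from TAIR10.1 in RefSeq, whose gene models can differ from those used by the authors; coordinates are 1-based. Approximate read numbers were obtained from the steps between low values, of which 54.8% to 64.4% lay within 0.15 of a whole read, too few to recover counts.

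Values were analysed as log2(RPKM + 0.1) with limma 3.58.1 in R 4.3.3 (lmFit, eBayes with trend) in 1 model of the 5 groups. It covered 26601 genes, those with 2 or more libraries above 0, and p values were adjusted by Benjamini-Hochberg over these genes in each contrast. A gene was called at an adjusted p under 0.05 and a log2 fold change past 1. The rank product used by the authors gives no standard error or direct test between mutants, so it was written anew (100 permutations) as an alternative. Both were tested on simulated data. Other alternatives were pseudocounts of 1 and 0.01, a mean RPKM of at least 1, no filter, size factors, a replicate block, 2 groups alone, adjusted p alone and leaving out each library. Nothing says that replicates came from separate plants, so p values measure the spread between pools. With 2 libraries against 2, no permutation test over samples can pass 0.05, and none was run. Besides the 10 genes, up to 3 called genes per direction and list in 3n against 2n seeds were named (in lists with none, the 2 most abundant). The 4 mutated genes were named too, with the 8 genes most like the mean profile among those with a group mean of at least 1 RPKM. RALF3, RALF18, RALF28, LRX9, LRX10, LRX11, ROPGEF12, FER, AT3G04700, TPR10, AT5G35400, MGH3, DMP9, DUO1, ACT12 and TUB9 were named outside this rule. The genes and lists were chosen with earlier results of these data known. Python 3.11.15, numpy 2.4.6, pandas 2.3.3, scipy 1.17.1 and matplotlib 3.10.9 were used.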

Additional observations from a re-analysis of the deposited data

Results flagged for a closer look

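The effect of a paternal mutation differed between mutant groups, by a direct limma contrast with Benjamini-Hochberg adjustment, for 3 of the 10 genes. Against 3n adm seeds, 3n suvh7 seeds had less BUPS1 (-1.63 ± 0.37 log2, adjusted p = 0.030) and less PRK2 (-1.84 ± 0.36, adjusted p = 0.021), where 3.51% of all genes were called lower and 0.372% higher. Against 3n adm seeds, 3n peg2 seeds had less BUPS1 (-1.61 ± 0.37, adjusted p = 0.023), RALF4 (-2.29 ± 0.32, adjusted p = 0.0045) and PRK2 (-2.14 ± 0.36, adjusted p = 0.0087), where 4.18% were called lower and 1.25% higher. RALF4 was also lower in 3n peg2 than in 3n suvh7 seeds (-1.29 ± 0.32, adjusted p = 0.043), where 2.32% were called lower and 1.98% higher, but this call was lost in 9 of 10 fits without 1 library. RALF4 in 3n peg2 against 3n adm seeds was called in all 10 such fits, and the other 4 were lost in 3 or 4 of them: without either 3n adm library, without the first library of the mutant group, and for some also without the second.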

How the results depend on the processing

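Of 1620 fold changes of the 10 genes under the limma alternatives, over all 10 contrasts, 1499 kept their side of the thresholds, 100 lost it, 36 of them between mutant groups, and 21 gained it, and no called one changed sign. Of 22 calls, 3 were lost under none of these, those of RALF4 in 3n adm, 3n suvh7 and 3n peg2 against 2n seeds. Counts of genes called among the 10 follow, where they moved by over 1.5 times. They were 5 in 3n against 2n, 4 in 3n adm against 2n, 3 in 3n suvh7 against 3n, 2 in 3n peg2 against 3n, 2 in 3n suvh7 against 3n adm, 3 in 3n peg2 against 3n adm and 1 each in 3n suvh7 against 2n, 3n peg2 against 2n and 3n peg2 against 3n suvh7 seeds. A pseudocount of 1, above most of these levels, left 1 in 3n adm against 2n and 0 in 3n against 2n, 3n suvh7 and 3n peg2 against 3n, 3n suvh7 and 3n peg2 against 3n adm and 3n peg2 against 3n suvh7 seeds, and it named 4 of the 8 genes of most similar profile. A pseudocount of 0.01 gave 1 in 3n suvh7 against 3n (PRK3, with PRK2, BUPS1 and RALF4 lost), 1 in 3n peg2 against 3n (RALF4) and 0 in 3n peg2 against 3n suvh7 seeds, and no filter gave 0 there. A mean of at least 1 RPKM left 2 of the 10 to test, ANX1 and RALF4, and gave 1 in 3n and 3n adm against 2n, in 3n suvh7 and 3n peg2 against 3n and in 3n peg2 against 3n adm seeds, and 0 in 3n suvh7 against 3n adm seeds. With 2 groups alone the counts were 3 in 3n against 2n and 0 in 3n suvh7 and 3n peg2 against 3n, 3n suvh7 against 3n adm and 3n peg2 against 3n suvh7 seeds. The adjusted p alone gave 6 in 3n suvh7 against 3n and 2 in 3n suvh7 against 2n seeds. The rank product called 2 in 3n peg2 against 3n, 1 in 3n peg2 against 2n and 0 in each other contrast. Size factors moved the median of all genes by -0.10 in 3n adm against 3n and by 0.12 in 3n suvh7 and 3n peg2 against 3n adm seeds, and gave 3 in 3n adm against 2n seeds, where ANX2 was lost.

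Without 1 library at a time the counts ranged from 3 to 7 in 3n against 2n, 2 to 5 in 3n adm against 2n, 1 to 4 in 3n suvh7 against 3n, 0 to 2 in 3n peg2 against 3n, 0 to 3 in 3n suvh7 against 3n adm, 1 to 3 in 3n peg2 against 3n adm and 0 to 1 in 3n peg2 against 3n suvh7 seeds. The group with 1 library left is assumed to vary like the others. In 3n adm against 3n seeds none of the 10 was called under any alternative.

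Replicate numbers did not pair the samples: deviations of same-numbered libraries correlated at -0.20 to 0.24 over 18383 genes. With a replicate block the count was 1 in 3n peg2 against 3n and 0 in 3n peg2 against 3n suvh7 seeds, and it was 3 in 3n adm against 2n seeds, where ANX2 was lost. It ended no other call. With the numbers of 3n suvh7 and 3n peg2 seeds crossed in the replicate block, a choice made after seeing the data, it was 1 in 3n peg2 against 3n seeds and 1 in 3n suvh7 and in 3n peg2 against 2n seeds. Levels of PRK1, PRK3 and PRK6 are limited by depth.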
